A study of Mus musculus with 4 samples.

Results

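Tcf7, Lef1, S1pr1, Klf2, Il7r, Dapl1, Satb1 and Bach2 are genes known for the resting, recirculating state of naive lymphocytes, and these 8 genes of the 32285 in the table were followed through the T, NK and Cd79a-gated cells of mouse mammary tumors. The tumors grew from EO771 cells, a mouse mammary carcinoma line, injected into the mammary gland of female C57BL/6 mice, and were taken at 1.5 cm3. The 4 tumors came from 2 Csf1rfl/fl mice, which carry floxed alleles of the macrophage growth factor receptor Csf1r and no Cre, and from 2 Lyve1CreCsf1rfl/fl mice, which carry the same alleles and a Cre driven by Lyve1. Lyve1 is expressed by a subset of tissue macrophages and also by lymphatic endothelium, so the deletion is not limited to macrophages by design. Ages were not given in the sources used here. Live CD45+ cells were sorted, marked with 1 hashtag antibody per tumor, and run on the 10X Chromium platform in 2 runs, each a pool of 1 tumor of each genotype. Levels are unique molecular identifiers (UMIs) of the gene per 10000 UMIs of the same cells, and values are listed in the order of runs 1 and 2.

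Each cell was put in a gate by the UMIs it held for Cd3e, Cd8a, Cd4, Ncr1 and Cd79a, with at least 1 UMI counted as positive. CD8 T cells had Cd3e and Cd8a, CD4 T cells had Cd3e and Cd4, Cd3e-only T cells had Cd3e without either coreceptor, NK cells had Ncr1 alone, and Cd79a-gated cells had Cd79a alone. Each gate was read separately in the cells that the authors kept for their own analysis and in the cells that they removed although mitochondrial genes gave under 5% of the UMIs. Of 53361 barcodes, 28429 were kept and 20164 were removed below that limit. The gates held 8877 kept and 9626 removed cells, and 5282 of the removed cells came from 1 tumor, the Lyve1CreCsf1rfl/fl tumor of run 2.

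Naive T cells circulate between blood and lymphoid organs in a quiescent state and lose much of this program when antigen activates them. The transcription factors TCF-1 (Tcf7) and LEF-1 (Lef1) maintain naive and stem-like T cells, the chromatin organizer SATB1 (Satb1) shapes T cell gene expression, and BACH2 (Bach2) represses effector programs. KLF2 (Klf2) holds T cells in quiescence and switches on S1pr1, whose product senses sphingosine 1-phosphate and lets lymphocytes leave tissues into blood and lymph. The interleukin 7 receptor (Il7r) carries survival signals, and Dapl1 is a transcript of resting T cells. T cells that stay in a tumor as effector or resident cells usually carry little S1pr1 and Klf2.

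The hashtag barcodes are shown because they alone tell which tumor, and so which genotype, a cell of a pooled run came from. The same 2 barcodes were used in both runs with the genotypes exchanged.
A0301, Csf1rfl/fl in run 1 and Lyve1CreCsf1rfl/fl in run 2: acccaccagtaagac
A0302, Lyve1CreCsf1rfl/fl in run 1 and Csf1rfl/fl in run 2: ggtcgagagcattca

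RefSeq promoter windows of assembly GRCm38.p6 were matched for 7 of the 8 genes, all but S1pr1. They were searched on both strands for CACCC, a core letter run of KLF sites, CTTTGA for TCF and LEF, and GTAAACA for FOXO, a factor family that drives Il7r, S1pr1 and Klf2 in resting T cells. Over 32851 promoters of the same length, 57.5% held CACCC, 16.0% held CTTTGA and 3.65% held GTAAACA, so a match to the first is a common event. The 250 bases before the start are printed for Dapl1, for Klf2 and for the first listed start of Lef1. Dapl1 was the member that differed most between CD8 T and NK cells and between CD4 and CD8 T cells. Klf2 and Lef1 are a KLF gene and a TCF/LEF gene among the members. Capitals mark motif matches, with GGGTG the reverse strand form of CACCC, and no 2 matches overlapped.
Dapl1, window chr2:59484403-59484702, plus strand: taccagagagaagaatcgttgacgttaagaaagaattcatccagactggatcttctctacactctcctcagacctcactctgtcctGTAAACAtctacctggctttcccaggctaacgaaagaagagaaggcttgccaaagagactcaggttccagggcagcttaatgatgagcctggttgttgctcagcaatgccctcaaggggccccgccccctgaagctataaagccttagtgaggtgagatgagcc
Klf2, window chr8:72318812-72319111, plus strand: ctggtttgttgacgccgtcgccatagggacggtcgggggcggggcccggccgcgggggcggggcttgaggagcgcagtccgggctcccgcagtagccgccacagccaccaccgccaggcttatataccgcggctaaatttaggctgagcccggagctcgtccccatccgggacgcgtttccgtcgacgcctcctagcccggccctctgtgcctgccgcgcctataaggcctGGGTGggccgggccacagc
Lef1, window chr3:131110047-131110346, plus strand: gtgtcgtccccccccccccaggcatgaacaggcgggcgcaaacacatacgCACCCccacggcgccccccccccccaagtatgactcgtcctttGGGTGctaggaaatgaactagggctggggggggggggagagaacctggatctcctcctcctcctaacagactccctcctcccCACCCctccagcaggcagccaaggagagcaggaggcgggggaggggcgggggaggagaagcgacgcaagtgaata
The Dapl1 window held 1 GTAAACA, whose first base lies at -164 from the start, and the Klf2 window held 1 GGGTG at -19. The Lef1 window held 3 matches to the KLF letters, 2 forward and 1 reverse, and none of the 3 printed windows held CTTTGA. A match is a letter run in a window and not evidence of a bound factor. By the mm10 annotation, the gene bodies lie at chr11:52252371-52283014 for Tcf7, chr3:131110471-131224356 for Lef1, chr3:115710433-115715072 for S1pr1, chr8:72319033-72321656 for Klf2, chr15:9505788-9530176 for Il7r, chr2:59484653-59505020 for Dapl1, chr17:51736187-51833290 for Satb1 and chr4:32238804-32586108 for Bach2.

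Kept cells had a median of 3721 to 4657 UMIs per tumor, and the runs shared 200 barcode sequences, 60 of them kept in both. Csf1r, the floxed gene, stood at 0.898 and 0.964 UMIs per 10000 over all kept cells of the Csf1rfl/fl tumors and at 0.427 and 0.454 in the Lyve1CreCsf1rfl/fl tumors. Kept T cell gates summed to 20.9 to 41.5 UMIs per 10000 over 7 T cell markers, against 5.74 to 6.73 in NK cells. NK cells summed to 99.7 to 136 over 7 NK markers, against 18.3 to 25.7 in CD8 T cells. Foxp3, the regulatory T cell factor, was found in 45.5% to 65.8% of kept CD4 T cells, so this gate is in large part regulatory. The kept Cd79a-gated cells had more neutrophil than B cell marker RNA. They summed to 1.19 to 13.6 over 8 B cell markers and 64.5 to 133 over 5 neutrophil markers, and they are called here by their gate gene. Myeloid RNA was present in each T cell gate and differed between tumors. The 5 neutrophil markers summed to 66.8 and 28.1 in kept CD8 T cells of the Csf1rfl/fl tumors and 54.5 and 6.79 in those of the Lyve1CreCsf1rfl/fl tumors.

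In kept CD8 T cells each of the 8 genes was highest in the Lyve1CreCsf1rfl/fl tumor of run 2, and all but Klf2 were lowest in the Csf1rfl/fl tumor of run 1. Tcf7 measured 0.212 and 0.721 UMIs per 10000 in the Csf1rfl/fl tumors and 0.563 and 1.36 in the Lyve1CreCsf1rfl/fl tumors, and the exact Poisson interval of the highest, which covers counting error only, ran from 1.25 to 1.48. Lef1 measured 0.0573 and 0.133 against 0.108 and 0.372 in the same order. Satb1 measured 0.242 and 0.630 against 0.631 and 1.16. For Tcf7 and Lef1 the genotypes overlapped, and for Satb1 the nearest tumors of the genotypes were almost equal. Bach2, the lowest counted of the transcription factors, measured 0.0365 and 0.106 against 0.0948 and 0.204. Klf2 measured 0.849 and 0.665 against 0.918 and 1.49. Of these, Klf2 did not overlap between genotypes and Bach2 did. With a gate of at least 2 UMIs Klf2 overlapped as well. Over all genes tested, 9.07% had both Lyve1CreCsf1rfl/fl tumors above both Csf1rfl/fl tumors in this gate.

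The receptors and Dapl1 had the same highest and lowest tumors. S1pr1 in kept CD8 T cells measured 0.0669 and 0.191 in the Csf1rfl/fl tumors and 0.122 and 0.438 in the Lyve1CreCsf1rfl/fl tumors. Il7r measured 0.771 and 0.877 against 0.970 and 1.21, the smallest ratio of highest to lowest tumor among the 8 genes in this gate. Dapl1 measured 0.270 and 0.430 against 0.379 and 0.971. Il7r did not overlap between genotypes, while S1pr1 and Dapl1 did.

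Across gates the genes did not share 1 order. Tcf7 averaged 1.15 ± 0.647 UMIs per 10000 in Cd3e-only T cells, 0.990 ± 0.398 in NK cells, 0.715 ± 0.482 in CD8 T cells and 0.388 ± 0.305 in CD4 T cells (SD, n = 4 tumors). Neighbours in this order differed by less than the larger of their SDs. Satb1 was led by NK cells with 1.96 ± 0.664, then Cd3e-only T cells with 1.33 ± 0.613, CD4 T cells with 0.831 ± 0.282 and CD8 T cells with 0.666 ± 0.378. Il7r, in contrast, was led by Cd3e-only T cells with 2.66 ± 0.549 and CD4 T cells with 2.32 ± 0.299, and stood at 0.957 ± 0.187 in CD8 T cells and 0.347 ± 0.101 in NK cells. The step of Il7r from CD4 to CD8 T cells exceeded the SDs of both gates.

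Of these 4 gates S1pr1 was lowest in NK cells, which are known to leave tissues through another receptor of the family, S1pr5. It averaged 0.622 ± 0.400 in Cd3e-only T cells, 0.497 ± 0.331 in CD4 T cells, 0.204 ± 0.164 in CD8 T cells and 0.083 ± 0.047 in NK cells. Klf2 averaged 1.94 ± 0.454 in Cd3e-only T cells, 1.75 ± 0.347 in NK cells, 0.996 ± 0.322 in CD4 T cells and 0.980 ± 0.355 in CD8 T cells. Klf2 is also expressed by myeloid cells, and neutrophils, read as cells with over 5% of UMIs from their markers, had 4.34 ± 0.226, so it is not a lymphocyte-specific value here. Lef1 averaged 0.407 ± 0.260 in Cd3e-only T cells, 0.312 ± 0.145 in CD4 T cells, 0.217 ± 0.056 in NK cells and 0.168 ± 0.140 in CD8 T cells. Bach2 averaged 0.215 ± 0.048 in NK cells, 0.129 ± 0.055 in Cd3e-only T cells, 0.110 ± 0.069 in CD8 T cells and 0.071 ± 0.079 in CD4 T cells. For Lef1 each neighbouring pair of gates differed by less than the larger of their SDs, while the step of Bach2 from NK to Cd3e-only T cells and that of Klf2 from NK to CD4 T cells exceeded both SDs.

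Dapl1 was highest in CD8 T cells. It averaged 0.513 ± 0.313 in CD8 T cells, 0.236 ± 0.201 in Cd3e-only T cells and 0.048 ± 0.049 in CD4 T cells. NK cells of the 4 tumors held 0 and 2 Dapl1 UMIs in the Csf1rfl/fl tumors and 0 and 7 in the Lyve1CreCsf1rfl/fl tumors, of which only the last exceeds the floor of 3 counts. Dapl1 was thus hardly detected in NK cells.

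**Figure D1:**
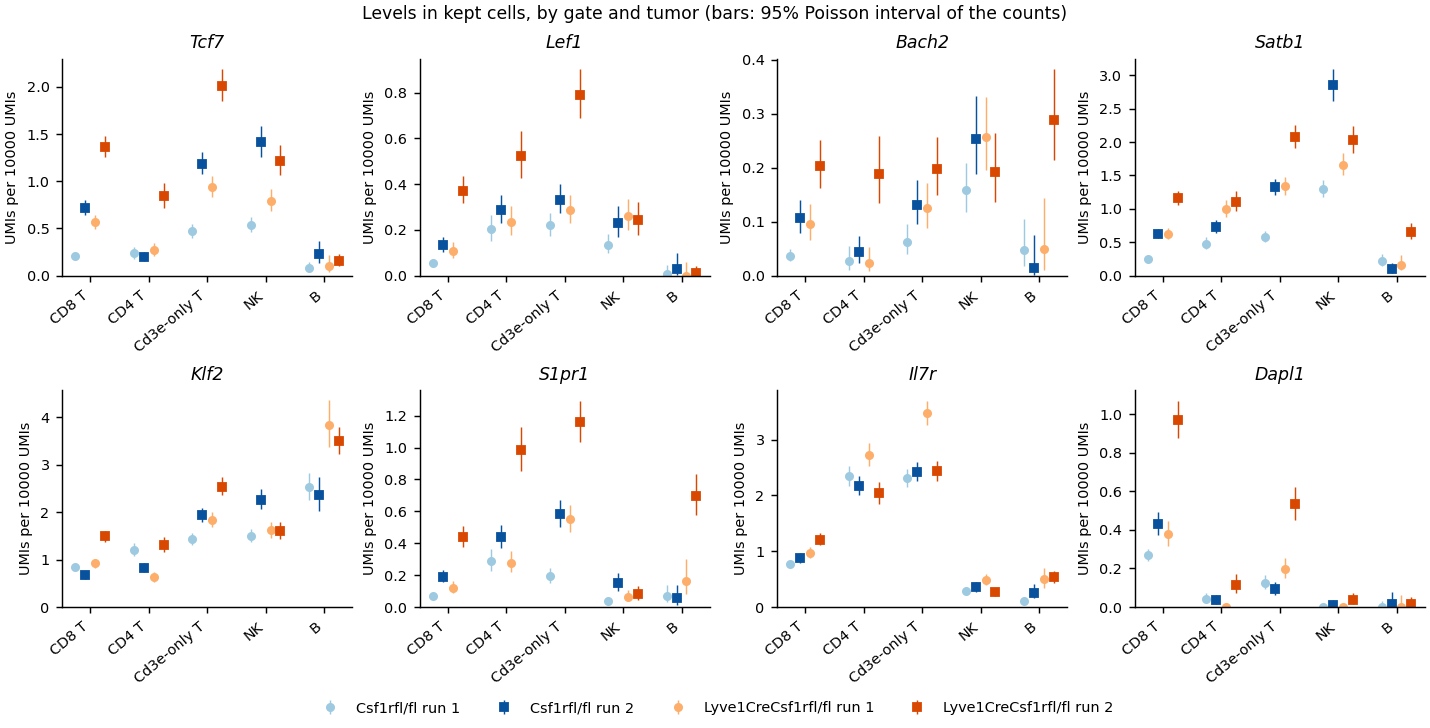
UMIs per 10000 (vertical axes, each from 0) of the 8 genes in kept cells, by gate, with 1 point per tumor colored by genotype and shaped by run, bars for the 95% Poisson interval of the counts, and B for the Cd79a-gated cells. The Lyve1CreCsf1rfl/fl tumor of run 2 is the highest point of CD8 T cells in all 8 genes, with Tcf7 at 1.36 against 0.212 to 0.721 in the other tumors.

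The gates were compared within tumors by edgeR's quasi-likelihood test on UMIs summed per tumor and gate, with the tumor as a block, Benjamini-Hochberg adjustment over all genes tested and a threshold of 0.05. Cd3e, Cd8a, Cd4, Ncr1 and Cd79a were left out because they defined the gates. Between CD8 T cells and NK cells, 3 of the 8 genes were higher in CD8 T cells, where 8.26% of the 10367 genes tested were, and 4 were lower, where 10.3% were. Dapl1 was higher by 5.57 ± 0.33 on the log2 scale (SE, adjusted p = 1.2e-06), a size that rests on the few UMIs of NK cells. Il7r was higher by 1.40 ± 0.16 (adjusted p = 0.000177) and S1pr1 by 1.10 ± 0.30 (adjusted p = 0.0277). The transcription factors went the other way in this edgeR comparison, with Satb1 at -1.76 ± 0.22 (adjusted p = 0.000267), Bach2 at -1.20 ± 0.29 (adjusted p = 0.0153), Klf2 at -0.93 ± 0.20 (adjusted p = 0.00811) and Tcf7 at -0.70 ± 0.20 (adjusted p = 0.0322). Lef1 did not pass, at -0.65 ± 0.28 (adjusted p = 0.159). The receptors and Dapl1 were higher in CD8 T cells than in NK cells of each of the 4 tumors, and Satb1 and Klf2 lower. Tcf7 and Bach2 were lower in 3 tumors, while in the Lyve1CreCsf1rfl/fl tumor of run 2 Tcf7 measured 1.36 in CD8 T and 1.21 in NK cells and Bach2 0.204 and 0.192. Some of these calls were lost when 1 tumor was left out. Tcf7 did not pass without the Csf1rfl/fl tumor of run 1 (-0.48), the Csf1rfl/fl tumor of run 2 (-0.57) or the Lyve1CreCsf1rfl/fl tumor of run 1 (-0.74). Bach2 did not pass without either of the latter 2 tumors (-1.16 and -1.10), nor S1pr1 without either Lyve1CreCsf1rfl/fl tumor (1.18 and 0.58).

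Between CD4 and CD8 T cells, 3 genes were higher in CD4 T cells, beside 9.89% of 10497 genes, and 3 were lower, beside 10.5%. By the same edgeR test S1pr1 was higher by 1.28 ± 0.15 (adjusted p = 5.15e-05), Il7r by 1.19 ± 0.11 (adjusted p = 1.09e-05) and Lef1 by 0.95 ± 0.18 (adjusted p = 0.00245). Dapl1 was lower, at -3.55 ± 0.28 (adjusted p = 2.04e-06), as were Tcf7 at -0.98 ± 0.21 (adjusted p = 0.00486) and Bach2 at -0.86 ± 0.28 (adjusted p = 0.0454). Satb1 at 0.32 ± 0.14 and Klf2 at -0.05 ± 0.14 did not pass (adjusted p = 0.130 and 0.862). In kept cells Tcf7 and Lef1, partner factors of the same family, differed between these gates in opposite directions. With removed cells added, Lef1 was at 0.68 (adjusted p = 0.00372) and Tcf7 at -0.10 (adjusted p = 0.547), so Tcf7 passed in kept cells and not in kept and removed cells together. The call of Tcf7 was also lost with DESeq2 (-0.96, adjusted p = 0.105) and without the tumor block (-0.98, adjusted p = 0.361). Bach2 passed in 5 of 13 alternatives (adjusted p from 0.00089 to 0.604). It was lost without the Csf1rfl/fl tumor of run 1 (-0.89), the Csf1rfl/fl tumor of run 2 (-0.70) or the Lyve1CreCsf1rfl/fl tumor of run 1 (-0.63).

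Cd3e-only T cells, in which no coreceptor UMI was caught, were tested against CD8 T cells and not against CD4 T cells. Against CD8 T cells 6 of the 8 genes were higher, beside 16.1% of 10652 genes, and 1 was lower, beside 14.9%. The edgeR values were 1.58 ± 0.12 for S1pr1, 1.42 ± 0.11 for Il7r, 1.34 ± 0.14 for Lef1, 0.9996 ± 0.08 for Satb1, 0.95 ± 0.13 for Klf2 and 0.71 ± 0.10 for Tcf7, with adjusted p between 4.13e-05 and 0.000933. Dapl1 was lower, at -1.25 ± 0.18 (adjusted p = 0.00105), and Bach2 did not pass at 0.25 ± 0.17 (adjusted p = 0.299). Median UMIs were 3236 to 4156 in these cells and 5273 to 6607 in CD8 T cells, and Trdc, a T cell receptor delta gene, was found in 3.602% to 9.58% of them. It was also found in 13.6% to 21.8% of kept NK cells, so a Trdc UMI alone does not mark a gamma delta T cell here. Foxp3 was found in 22.1% to 29.2% of them and in 2.05% to 2.90% of CD8 T cells. The part of depth, gamma delta T cells and regulatory T cells in these differences was not tested. Fitted without the tumor block, 4, 2 and 2 of the 8 genes passed in the 3 comparisons, in the order given. Over all genes the tests without the block called 1087, 852 and 1062 (10.5%, 8.12% and 9.97% of genes tested). With the block they called 1927, 2141 and 3304 (18.6%, 20.4% and 31.0%). Without the Lyve1CreCsf1rfl/fl tumor of run 1, 4 in place of 7 of the 8 genes passed between CD8 T and NK cells, beside 13.1% of all genes. With removed cells added 5 of the 8 passed, beside 24.1% of all genes.

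Other genes of the naive and quiescent state were read from fixed lists. Of 18 companion genes 14 were higher and none lower in Cd3e-only than in CD8 T cells, with a median of 0.56 on the log2 scale against 0.00023 over all genes. Among the largest were Foxo1 at 1.04 ± 0.13 and Klf3 at 1.03 ± 0.14. Of 14 effector and residency genes 5 were higher and 9 lower there (median -0.91), beside 16.1% and 14.9% of all genes. The largest were Itgae at 2.87 ± 0.12, Cxcr6 at -2.27 ± 0.11 and the inhibitory receptor Pdcd1 at -1.81 ± 0.16. Itgae encodes the CD103 integrin, which marks resident cells and also many regulatory T cells. The effector and residency list did not move as 1. Of 8 egress and homing genes tested 6 were higher and 1 lower, with Itgb7 at 1.96 ± 0.12 and Cxcr4 at 0.93 ± 0.11 among the largest. Thus most but not all genes of the companion and homing lists passed as higher, beside 16.1% of all genes.

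In the other comparisons the companions split. Over all genes, 8.26% were higher and 10.3% lower in CD8 T than in NK cells. In CD4 against CD8 T cells 9.89% were higher and 10.5% lower. Against NK cells, 3 of 18 companions were higher and 4 lower in CD8 T cells (median -0.23 against 0.0062 over all genes), with Nsg2 at 2.58 ± 0.31 and Txk at -2.44 ± 0.16 the largest. Effector genes split 6 to 5, with Pdcd1 at 4.08 ± 0.24, Cxcr6 at 3.98 ± 0.14 and the granule protease Gzmb at -2.27 ± 0.08. Egress genes split 2 to 4, with S1pr5, the NK cell egress receptor, at -4.80 ± 0.53 and Itgb7 at -1.19 ± 0.15. Thus S1pr1 and S1pr5 differed between CD8 T and NK cells in opposite directions. In CD4 against CD8 T cells 5 companions were higher and 4 lower (median 0.020 against -0.0095 over all genes), led by Bcl2 at -2.57 ± 0.20, Foxo1 at 1.28 ± 0.11 and Id3 at -1.10 ± 0.19. Effector genes were 3 higher and 9 lower (median -0.60), led by Itgae at 3.16 ± 0.11, Nr4a2 at -2.54 ± 0.08 and Cxcr6 at -2.06 ± 0.09. Of 8 egress genes tested 4 were higher and 1 lower, led by Itgb7 at 2.25 ± 0.12 and Itga4 at -1.38 ± 0.11. The lists overlap, with Ccr7 in both the companion and the egress list and Cd69 in both the effector and the egress list.

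The genotypes were then compared in the kept cells of each gate, to ask whether loss of Csf1r in Lyve1-expressing cells went with a change in these genes. In CD8 T cells all 8 genes were on average higher in the Lyve1CreCsf1rfl/fl tumors, but none passed the test. The median of the 8 was 1.09 on the log2 scale, against 0.012 over all 10904 genes tested, of which 52.2% were above 0. Tcf7 differed by 1.09 ± 0.52, Lef1 by 1.39 ± 0.53, Satb1 by 1.08 ± 0.40 and Dapl1 by 0.95 ± 0.37 (SE), each with an adjusted p of 0.99996 in edgeR. Over all genes 0 were called (0%), with 362 at an unadjusted p under 0.05 and 5 called by DESeq2. Both Lyve1CreCsf1rfl/fl tumors lay above both Csf1rfl/fl tumors for 3 of the 8 genes, Klf2, Il7r and Satb1, and for 9.07% of all genes tested. With a gate of at least 2 UMIs the genotypes overlapped for Klf2. A comparison of 2 tumors with 2 cannot give a two-sided exact permutation p below 0.333 for a single gene.

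In Cd3e-only T cells the 8 genes were likewise all above 0, with a median of 0.84 against 0.0091 over all genes and none past the threshold. Dapl1 differed by 1.68 ± 0.42 (adjusted p = 0.830 in edgeR), S1pr1 by 1.14 ± 0.43 and Satb1 by 0.85 ± 0.33. No gene of 10698 was called (0%), with 448 at an unadjusted p under 0.05 and 5 called by DESeq2. The genotypes did not overlap for Il7r, Dapl1 and Satb1, beside 13.4% of all genes. They did overlap for Il7r with a gate of at least 2 UMIs, and for Dapl1 in cells without a Trdc UMI. In CD4 T cells 7 of the 8 were above 0 and the median was 0.66 against 0.0032 over all genes. Tcf7 differed by 1.30 ± 0.43 and Satb1 by 0.79 ± 0.23 (adjusted p = 0.786 and 0.588 in edgeR), and these were the 2 genes without overlap, beside 12.4% of all genes. There 2 of 10184 genes were called (0.0196%), neither of them a member.

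In NK cells the members showed no common direction. Dapl1 was too low to be tested, 4 of the other 7 were above 0, and their median was 0.089 against -0.0031 over all genes. The largest was Lef1 at 0.53 ± 0.29, the only member without overlap, beside 8.81% of all genes. Of 9518 genes 1 was called (0.0105%), and it was not a member. The difference between NK and T cells in the effect of genotype was not tested. None of the companion, effector or egress genes passed in any of the 4 genotype comparisons. The companions' median was 0.38 in CD8 T cells, 0.057 in CD4 T cells, 0.36 in Cd3e-only T cells and -0.17 in NK cells.

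The Chromium run pairs the tumors, and within runs the CD8 T cells kept 1 direction. The log2 ratio of the Lyve1CreCsf1rfl/fl to the Csf1rfl/fl tumor was above 0 for all 8 genes in both runs, at 1.38 and 0.94 for Tcf7, 0.87 and 1.48 for Lef1, and 0.096 and 1.18 for Klf2. In Cd3e-only T cells it was also above 0 for all 8 in both runs, with Tcf7 at 0.94 and 0.78 and Il7r at 0.55 and 0.025. These directions depended on the gate. With a gate of at least 2 UMIs the Lyve1CreCsf1rfl/fl level of Klf2 in CD8 T cells was 0.907 times the Csf1rfl/fl level in run 1. That of Il7r in Cd3e-only T cells was 0.947 times in run 2. In Cd3e-only T cells without a Trdc UMI, Dapl1 was 0.923 times in run 1. In CD4 T cells the runs did not share 1 direction for 5 of the 8 genes. S1pr1 at -0.077, Klf2 at -0.96, Dapl1 at -2.77 and Bach2 at -0.13 were below 0 in run 1, Il7r at -0.10 was below 0 in run 2, and Tcf7, Lef1 and Satb1 were above 0 in both, with Tcf7 at 0.19 and 2.04. The size of the Dapl1 value is set by a pseudocount, since these cells of the Lyve1CreCsf1rfl/fl tumor of run 1 held 0 Dapl1 UMIs. In NK cells all 7 were above 0 in run 1 and Lef1 alone in run 2, where Tcf7 was at -0.19. With the run as a block, no member passed in any gate, while the genes called over all genes were 0 in CD8, 6 in CD4, 3 in Cd3e-only T cells and 7 in NK cells.

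The size of the T cell differences changed with the tumor left out. Without the Lyve1CreCsf1rfl/fl tumor of run 2 the median of the 8 genes was 0.33 in CD8, 0.51 in Cd3e-only and -0.15 in CD4 T cells, and none passed. Without the Csf1rfl/fl tumor of run 2 the CD8 median was 1.82 and 5 of 8 passed, and without the Lyve1CreCsf1rfl/fl tumor of run 1 it was 1.46 and 6 of 8 passed, where 3.66% and 0.934% of all genes tested did. In Cd3e-only T cells 4, 3 and 1 of 8 passed without the Csf1rfl/fl tumor of run 2, the Lyve1CreCsf1rfl/fl tumor of run 1 and the Csf1rfl/fl tumor of run 1, where 1.35%, 0.366% and 0.199% of all genes did. In CD4 T cells 1 of 8 passed without the Lyve1CreCsf1rfl/fl tumor of run 1, where 0.232% of all genes did. Such fits take the spread of the remaining single tumor from the other genotype. Myeloid RNA moved with the result, since the CD8 T cells of the Lyve1CreCsf1rfl/fl tumor of run 2 had both the highest members and the lowest neutrophil sum (6.79). Without cells that had over 1% myeloid UMIs the CD8 median was 1.07, close to the 1.09 of all kept cells. That limit used a partly different set of genes than the neutrophil sum and left in cells with less myeloid RNA. The part of myeloid RNA in the result was not tested. With kept and removed cells together the CD8 median was 1.08 and the Cd3e-only median 1.24, again with none of the 8 called.

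**Figure D2:**
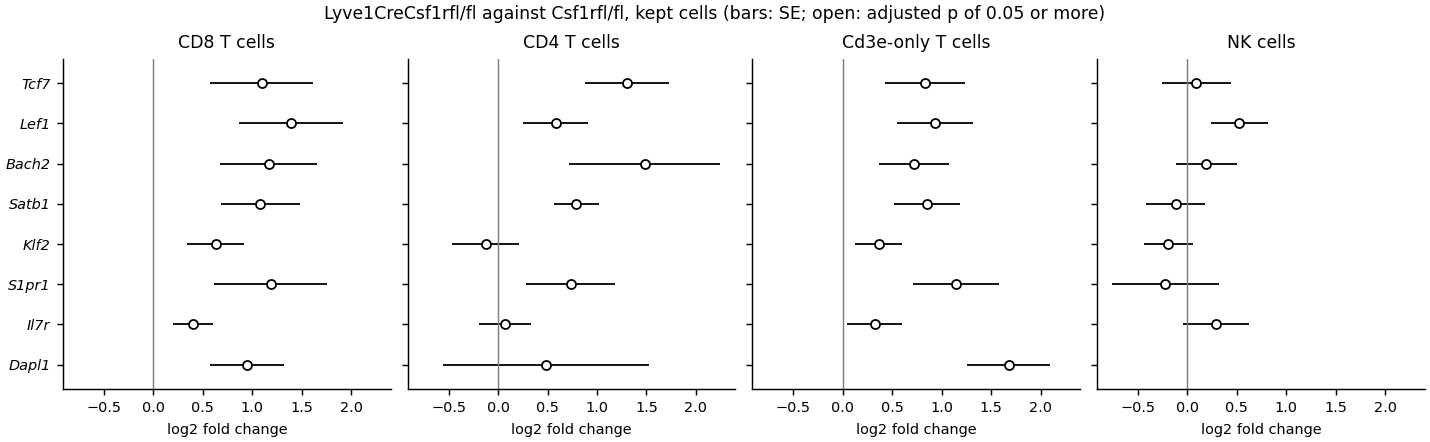
Log2 fold change of Lyve1CreCsf1rfl/fl over Csf1rfl/fl tumors (horizontal axes, the same in all 4 panels) for the 8 genes in kept cells, with bars of 1 SE and a line at 0. Dapl1 was not tested in NK cells. All points of CD8 and Cd3e-only T cells lie above 0 (medians 1.09 and 0.84), and none is filled because none passed the threshold.

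Within the T cell gates, 7 of the 8 genes had their highest level in removed cells of the Lyve1CreCsf1rfl/fl tumor of run 2. The exception was Il7r, whose highest level, 3.48 UMIs per 10000, was in kept Cd3e-only T cells of the Lyve1CreCsf1rfl/fl tumor of run 1, against 3.003 in the removed cells of the run 2 tumor. No test was made between kept and removed cells. Per the study's methods, cells were removed for not being hashtag singlets or for lying in clusters of these same transcriptomes. Those clusters were dropped as possible contaminants because nearly all their cells came from the Lyve1CreCsf1rfl/fl tumor of run 2. The study also describes them as lymphocytes high in ribosomal gene RNA. Ribosomal genes gave 27.2%, 24.6% and 26.4% of UMIs in removed CD8, CD4 and Cd3e-only T cells of this tumor. In its kept cells of the same gates they gave 27.2%, 23.5% and 24.0%. The files used here do not tell removal by hashtag from removal by cluster for a cell. The share of cells removed from this tumor, and a shared shift of its removed cells, are therefore set in part by the filter and are given as a description. The study removed the cells of every tumor that lay in those clusters. Shifts of removed cells in the other tumors may thus also be set in part by the filter. In the Lyve1CreCsf1rfl/fl tumor of run 2 the authors removed 58.9% of CD8, 59.7% of CD4 and 63.6% of Cd3e-only T cells, against 16.2% of NK cells. In the other tumors removal took 25.3% to 50.2% of CD8, 28.3% to 45.2% of CD4 and 27.8% to 41.5% of Cd3e-only T cells. All 8 genes were higher in the removed than in the kept cells of that tumor in each of the 3 T cell gates, with median folds of 1.88, 2.33 and 1.99 in CD8, CD4 and Cd3e-only T cells. Of all genes tested, 38.3%, 36.8% and 34.0% were higher in the removed cells of the same gates. In the same order of gates, 8, 7 and 5 of the 8 genes were higher in the removed cells of the Csf1rfl/fl tumor of run 2, 4, 3 and 7 in the Csf1rfl/fl tumor of run 1, and 2, 4 and 0 in the Lyve1CreCsf1rfl/fl tumor of run 1. Of all genes tested, 34.3% to 43.1% were higher in the removed cells of these gates and tumors.

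Removed CD8 T cells had Tcf7 at 0.228 and 0.814 UMIs per 10000 in the Csf1rfl/fl tumors and 0.353 and 2.25 in the Lyve1CreCsf1rfl/fl tumors, and the Poisson interval of the highest was 2.14 to 2.37. Lef1 measured 0.0452 and 0.440 against 0.0492 and 1.09, and S1pr1 measured 0.0603 and 0.550 against 0.102 and 1.26. In both genes the run 2 tumors were several times above the run 1 tumors, whichever genotype. The tumor of many of these cells is uncertain. Their hashtag count was under 3 times the other in 80.3% and 69.8% (Csf1rfl/fl tumors) and 52.8% and 28.6% (Lyve1CreCsf1rfl/fl tumors). Klf2 was at 1.01 and 1.63 against 1.02 and 2.99, and Il7r at 1.11 and 1.36 against 1.49 and 2.03. Dapl1 measured 0.161 and 0.859 against 0.256 and 1.93. Satb1 measured 0.225 and 0.922 against 0.403 and 2.07, and Bach2 0.0407 and 0.113 against 0.0559 and 0.240. In CD8 T cells each of the 8 thus peaked in removed cells of the Lyve1CreCsf1rfl/fl tumor of run 2, with folds over its kept cells from 1.18 for Bach2 to 2.93 for Lef1.

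CD4 T cells of that tumor had the highest median fold of the 3 T cell gates. Tcf7 in kept CD4 T cells measured 0.236 and 0.197 in the Csf1rfl/fl tumors and 0.275 and 0.842 in the Lyve1CreCsf1rfl/fl tumors. In removed CD4 T cells it measured 0.398 and 1.06 against 0.329 and 2.71. Lef1 in the same removed cells measured 1.76, S1pr1 1.75 and Dapl1 1.14. The Dapl1 level was 9.80 times that of the kept cells, on 24 kept and 391 removed UMIs. Regulatory T cells were a smaller part of these cells, since Foxp3 was found in 23.2% of the removed and 56.5% of the kept CD4 T cells of this tumor, while in the other tumors it was found in 52.4% to 57.4% of the removed and 45.5% to 65.8% of the kept. Within CD4 T cells without Foxp3, Tcf7 in this tumor was 4.25 in the removed and 1.59 in the kept cells, and within those with Foxp3 it was 0.740 and 0.333. The split rests on Foxp3 UMIs at unequal depth (medians of 3520 UMIs in removed and 4568.5 in kept CD4 T cells), and the part of regulatory T cells in the result was not tested. Removed Cd3e-only T cells of this tumor had Tcf7 at 3.67, Satb1 at 3.73 and S1pr1 at 2.50, against 2.01, 2.08 and 1.16 in the kept.

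NK cells of no tumor had all 8 genes higher in the removed cells. In the Csf1rfl/fl tumors 2 and 2 of the 8 were higher, beside 43.8% and 40.6% of all genes tested. In the Lyve1CreCsf1rfl/fl tumors 1 and 2 were, beside 48.2% and 41.6%. With a gate of at least 2 UMIs the counts were 4, 2, 5 and 4 in the same order, so they depended on the gate. Tcf7 in NK cells of the Lyve1CreCsf1rfl/fl tumor of run 2 was 0.577 in the removed against 1.21 in the kept. Il7r was higher in the removed NK cells of each tumor. It stood at 0.780, 1.003, 0.612 and 0.807 in removed against 0.284, 0.352, 0.488 and 0.263 in kept NK cells, the 4 tumors given in the order used above. Those removed NK cells are few, with 55 to 145 per tumor. Removed NK cells summed to 44.1 to 89.2 over the NK markers, against 99.7 to 136 in the kept.

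**Figure D3:**
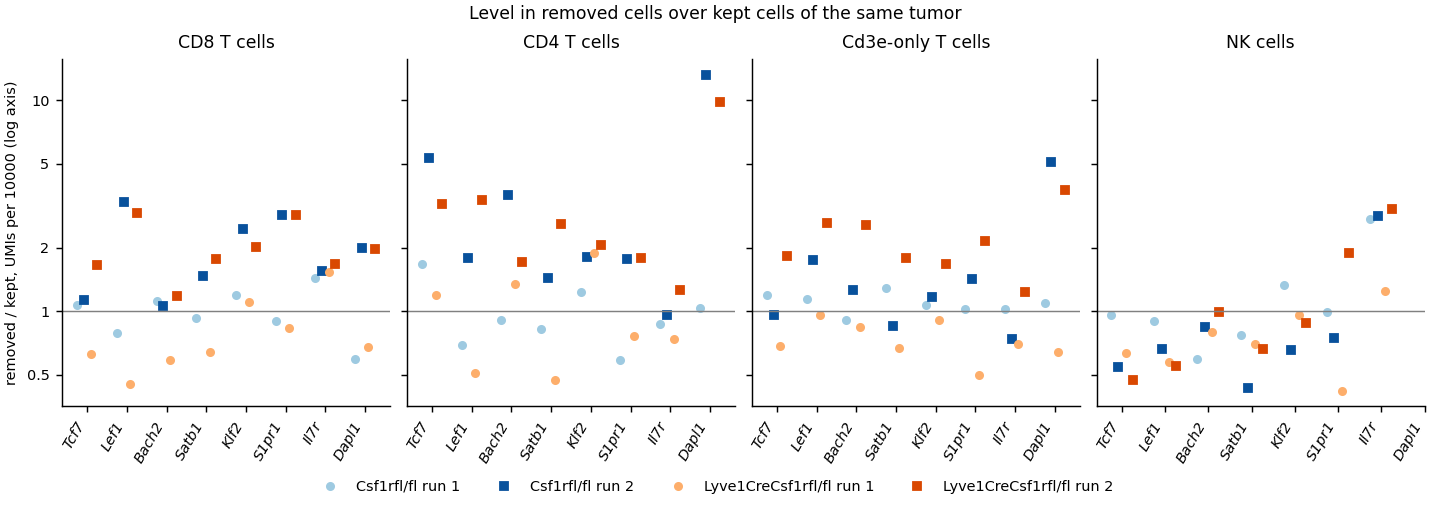
Fold of the removed over the kept cells (log axis) for the 8 genes in CD8, CD4, Cd3e-only T and NK cells, with 1 point per tumor and a line at 1. Points resting on few UMIs are left out. In the Lyve1CreCsf1rfl/fl tumor of run 2 all 8 genes lie above 1 in the 3 T cell gates (medians 1.88, 2.33 and 1.99).

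The other gene lists were read in the same way. In removed against kept CD8, CD4 and Cd3e-only T cells of the Lyve1CreCsf1rfl/fl tumor of run 2, 16, 16 and 17 of 18 companions were higher, with medians of 0.51, 0.70 and 0.38 on the log2 scale. Of 14 effector and residency genes 4, 3 and 2 were higher, with medians of -0.71, -0.75 and -0.70. Of 8 egress and homing genes 6, 6 and 4 were higher, with medians of 0.33, 0.38 and 0.00089. In CD8 T cells 6 of 8 egress and homing genes were higher in each of the other tumors as well, with medians of 0.42 and 0.35 in the Csf1rfl/fl tumors and 0.12 in the Lyve1CreCsf1rfl/fl tumor of run 1. The medians over all genes in the same cells were -0.080, -0.11 and -0.094. Some examples, chosen after their values were seen, show the size. Pdcd1 measured 1.58 in kept and 0.677 in removed CD8 T cells of this tumor, and Gzmb 6.10 and 2.71. Igfbp4, a transcript of naive T cells, measured 0.140 in kept and 1.14 in removed CD4 T cells. Lower effector genes were not particular to this tumor. In each T cell gate of the other tumors 1 to 4 of 14 were higher (medians from -0.54 to -0.20), beside 34.3% to 43.1% of all genes. Companions were also mostly higher in the Csf1rfl/fl tumor of run 2, with 16 and 14 of 18 in CD8 and CD4 T cells (medians 0.46 and 0.58) and 10 of 18 in Cd3e-only T cells (median 0.027). In the run 1 tumors 7 to 12 of 18 were higher per gate.

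Other measures moved with removal. Removed T cells of the 3 other tumors were deep, with median UMIs of 7282.5 to 13262 per gate and tumor, and in 40% to 80.3% of them the hashtag count of the tumor was under 3 times that of the other hashtag. In the Lyve1CreCsf1rfl/fl tumor of run 2 the removed T cells had medians of 2944 to 5080 UMIs, and 20.7% to 28.6% were under that margin. The 5 neutrophil markers summed to 61.9 in its removed CD8 T cells, against 6.79 in the kept, and to 61.2 to 156 in the removed CD8 T cells of the other tumors. With only cells at or above the margin, the result in this tumor was larger, with all 8 genes higher in each gate and median folds of 2.58, 3.29 and 2.82. In the same restricted cells of the Csf1rfl/fl tumor of run 2 the median folds were 1.32, 1.64 and 1.04, and 7, 8 and 5 of 8 genes were higher.

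A level summed over a gate cannot tell a few cells with much of a gene from many cells with little, so cells were thinned to 1500 UMIs each and the members found per cell were counted. Cells too shallow for this are not in the thinned shares. Of the 528 kept neutrophils of the Lyve1CreCsf1rfl/fl tumor of run 2, for example, 374 entered. In the removed cells of the Lyve1CreCsf1rfl/fl tumor of run 2, 3 or more of the 8 genes were found together in 43.6% of CD8 (exact 95% interval 40.2% to 47.1%), 54.0% of CD4 and 61.0% of Cd3e-only T cells. In its kept cells these shares were 12.3%, 9.003% and 18.7%. The removed T cells of the other tumors gave 1.12% to 15.7%, and NK cells of any tumor at most 5.602%. Neutrophils, which are not lymphocytes but do express Klf2, gave 0% to 0.802% among kept and 0% to 4.79% among removed cells. In 1 tumor 0 of 953 kept neutrophils had 3 or more, which allows up to 0.386% by the exact interval. Before thinning, the same removed T cells gave 77.2%, 79.1% and 83.3% and the kept ones 32.4%, 29.0% and 44.5%. The intervals cover counting error only.

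Single genes differed in thinned cells. Tcf7 was found in 37.8% of removed and 15.6% of kept CD8 T cells of the Lyve1CreCsf1rfl/fl tumor of run 2, against 4.26% and 1.87% of its neutrophils. The median depths over all cells, those too shallow to thin included, were 5080 and 6051.5 UMIs in the CD8 T cells and 3681 and 1825.5 in the neutrophils. In CD8 T cells of the other tumors it was found in 2.68% to 12.4% of removed and 3.44% to 8.12% of kept cells. Dapl1 was found in 26.0% of removed and 7.72% of kept CD8 T cells of that tumor and in 0% and 0.535% of its neutrophils. Bach2 was found in 4.77% of removed and 3.16% of kept CD8 T cells of that tumor. Il7r was found in 37.6% of its removed Cd3e-only T cells, against 37.7% of the kept ones of the Lyve1CreCsf1rfl/fl tumor of run 1. For Klf2 the kept and removed neutrophils gave 35.3% to 42.6%, near the 42.9% of removed CD8 T cells of that tumor, so a Klf2 UMI does not separate these T cells from neutrophils.

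**Figure D4:**
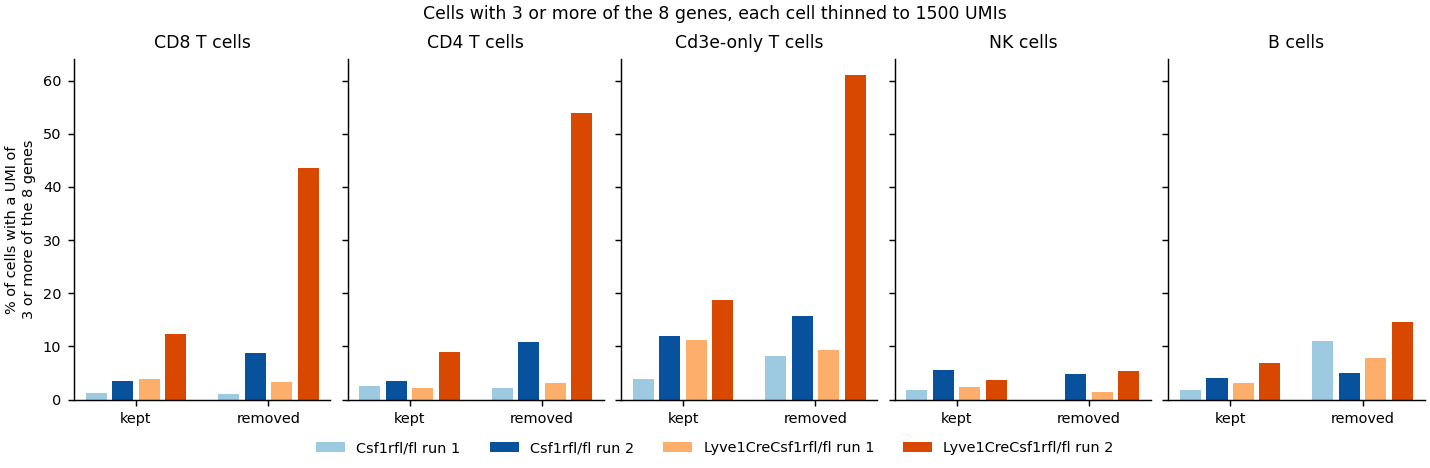
Percent of cells (vertical axis, from 0) with 3 or more of the 8 genes after thinning to 1500 UMIs, by gate, in kept and removed cells, with 1 bar per tumor and B cells for the Cd79a-gated cells. Removed CD8, CD4 and Cd3e-only T cells of the Lyve1CreCsf1rfl/fl tumor of run 2 stand at 43.6%, 54.0% and 61.0%, above every other bar.

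The removed Cd79a-gated cells had sums of 82.6 and 28.3 over the 8 B cell markers in the Csf1rfl/fl tumors and 17.7 and 65.2 in the Lyve1CreCsf1rfl/fl tumors, against 3.31, 1.19, 4.72 and 13.6 in the kept ones. The highest kept sum, in the Lyve1CreCsf1rfl/fl tumor of run 2, lay near the lowest removed one. They numbered 248 and 382 in the Csf1rfl/fl tumors and 137 and 2962 in the Lyve1CreCsf1rfl/fl tumors, and in the last they were 38.6% of all removed cells. Klf2, which also restrains B cell migration and activation, measured 4.38 and 2.58 UMIs per 10000 against 3.77 and 5.56 in the same order. Satb1 measured 2.04 and 1.07 against 0.866 and 2.85. S1pr1, which B cells too use to leave lymphoid tissue, measured 1.14 and 0.751 against 0.361 and 1.87. Bach2, a factor that holds B cells from the plasma cell fate, measured 0.875 and 0.599 against 0.330 and 1.46. For S1pr1, Satb1 and Bach2 the Lyve1CreCsf1rfl/fl tumor of run 2 was highest and that of run 1 lowest. The T cell members were low in these cells, with Tcf7 at 0.122 to 0.268, Lef1 at 0.0309 to 0.0897 and Dapl1 at 0 to 0.0627. The plasma cell list summed to 9.13 to 64.8 in them, so antibody-secreting cells or their free RNA were present too.

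Over 19 kept units of gate and tumor with at least 50 cells, the members did not form 1 block. These correlations are descriptions across units that share tumors, depth and runs. Tcf7 had the highest Pearson r with the mean of the other 7 (0.777), then Lef1 (0.763) and Satb1 (0.684), and Klf2 had the lowest (0.031). Without the Cd79a-gated units Lef1 (0.824) was above Tcf7 (0.788). Tcf7 and Satb1 gave r = 0.80 and Tcf7 and Lef1 r = 0.76, the closest pairs over all 19. Without the Cd79a-gated units the closest were Tcf7 and Bach2 (0.87), Lef1 and S1pr1 (0.82) and Satb1 and Bach2 (0.81), while Tcf7 and Lef1 gave 0.59. Klf2 also depended on the Cd79a-gated units, and without these its r with the other 7 was 0.62 over 16 units, while that of Il7r dropped from 0.36 to 0.097. Outside the 8 genes the patterns most like their mean were those of Galnt10 (r = 0.888), Gramd3 (0.886), Plcxd2 (0.882), Arl4c (0.874), Letm2 (0.872), Slc17a9 (0.864), Rps27 (0.863), Rapgef6 (0.862), Lysmd1 (0.856) and Frat2 (0.851).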

How the data were processed

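Cells of 4 EO771 tumors, 2 per genotype and 1 of each genotype per Chromium run, were measured. The authors aligned reads with Cell Ranger 6.0.1 to mm10 (Chromium 3' v2), used Seurat, and deposited UMI counts per gene and barcode without normalization, hashtag counts per barcode, and SCTransform-corrected counts of the kept cells, of which only the cell names were read here. Per the study's methods, kept cells were singlets under 5% mitochondrial UMIs. The 4 clusters found mainly in the Lyve1CreCsf1rfl/fl tumor of run 2 were removed from all tumors as possible contaminants. A deposited table named the hashtag of each tumor.

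Each cell was given to the tumor with the higher centered log ratio hashtag count of its run. Cells positive for several lineages (626 kept and 2335 removed) were left out, and no doublet caller was run. UMIs were summed per tumor and gate, filtered with filterByExpr, TMM normalized and tested with edgeR 4.0.16 in R 4.3.3, with Benjamini-Hochberg adjustment and standard errors from the fold change and statistic. DESeq2 1.42.0 served as an alternative. Sums and intervals were made in Python 3.11.15 with scipy 1.17.1 and pandas 2.3.3. The tests were tested on simulated data. A tumor was the replicate. The p-values between genotypes measure the spread between tumors of a genotype. Those between gates, with the tumor as block, measure how much the gate difference within a tumor varied over the tumors. Total kept UMIs per tumor lay between 27686362 and 56715743. Deviations of tumors of the same run from their genotype means correlated over genes with r = 0.320, 0.195, 0.283 and 0.270 in CD8, CD4, Cd3e-only T and NK cells, and the labels give the number as the run, so it pairs tumors. Removed and kept cells were set side by side as exact Poisson and exact binomial intervals without a test. Log2 differences of removed to kept cells used a pseudocount of 0.1 UMIs per 10000, and correlations used log2 CPM with a pseudocount of 10. The 8 members, the marker and gene lists and the tests were chosen with earlier results of these data known. All 8 members are named in the kept T and NK gates, in removed CD8 T cells and in the comparisons of gates. Fewer are given in some genotype comparisons, in the other removed cells and in the Cd79a-gated cells. Genes of other lists are given as counts, with values for the 3 largest past the threshold in each comparison of gates, or for fewer where a gene among them is not reported here. Alternatives were other filters, normalizations, gates, hashtag margins, a limit on myeloid UMIs, the run block and each tumor left out.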

Additional observations from a re-analysis of the deposited data

How the results depend on the processing

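Of 399 values of single members in the genotype comparisons under the alternatives, 353 kept their direction and side of the threshold, 28 passed it and 18 reversed. Of 312 values in the comparisons of gates, 272 kept both, 30 no longer passed, 6 newly passed and 4 reversed. The counts of genes called moved more, and the cause was not tested. For genotype, DESeq2 called 5 genes in CD8, 19 in CD4, 5 in Cd3e-only T cells and 3 in NK cells, and without a filter on low counts 246, 186, 88 and 54 were called. With the run as replicate block the count was 6 in CD4, 3 in Cd3e-only T cells and 7 in NK cells, and this pairing changed no call of a member. A gate of at least 2 UMIs gave 14 in CD4 T cells and 3 in NK cells, cells under the myeloid limit gave 5 in CD4 T cells, DESeq2 size factors gave 1 in CD4 T cells, and kept and removed cells together gave 0 in CD4 T cells and 0 in NK cells. Leaving out 1 tumor gave 22 to 413 in CD8, 17 to 260 in CD4, 22 to 148 in Cd3e-only T cells and 4 to 63 in NK cells. Without the low count filter 5 members passed in CD8, 2 in Cd3e-only and 1 in CD4 T cells, where 1.37%, 0.502% and 1.09% of all genes did. Between gates DESeq2 called 1226 (CD8 against NK), 1206 (CD4 against CD8) and 1936 (Cd3e-only against CD8), and the fit with no replicate block called 1087, 852 and 1062. Leaving out 1 tumor gave 2077 to 3302 in Cd3e-only against CD8 T cells.

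With kept and removed cells together, the genotype value was 0.25 for Klf2 in CD4 T cells and -0.066 for Il7r in NK cells, and Lef1 was at 0.17 in CD8 against NK cells. Klf2 was at 0.011 in CD4 against CD8 T cells with a gate of 2 UMIs. With 1 tumor left out, the genotype values in CD4 T cells ran from -0.46 to 2.30 for Bach2, -6.40 to 1.50 for Dapl1 (0 UMIs in 1 tumor), -0.25 to 0.34 for Il7r, -0.64 to 0.29 for Klf2 and -0.31 to 1.34 for S1pr1. They ran from -0.048 to 0.60 for Il7r in Cd3e-only T cells, and in NK cells from -0.15 to 0.49 for Bach2, -0.35 to 0.75 for Il7r, -0.36 to 0.0089 for Klf2, -0.90 to 0.84 for S1pr1, -0.50 to 0.41 for Satb1 and -0.38 to 0.79 for Tcf7. Klf2 ran from -0.21 to 0.12 in CD4 against CD8 T cells. Thinning to 1500 UMIs moved 56 of 80 shares of cells with a member. The low counts of Bach2 in the T and NK gates, those of Dapl1 outside CD8 T cells and the number of tumors limit the precision.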

Other observations

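Cells that were positive for more than 1 lineage gate were not assigned to a cell type. Tcf7 in the kept cells of this kind measured 0.316 and 0.881 UMIs per 10000 in the Csf1rfl/fl tumors and 0.595 and 1.29 in the Lyve1CreCsf1rfl/fl tumors. A Trdc UMI alone marks no single cell type here, since 13.6% to 21.8% of kept NK cells, gated without Cd3e, also held it. It was found in 0.832% to 1.54% of kept CD8 and 0% to 0.617% of kept CD4 T cells. Cd3e-only T cells with a Trdc UMI were also read in the kept cells. Their Tcf7 measured 0.595 and 3.10 UMIs per 10000 in the Csf1rfl/fl tumors and 2.10 and 4.41 in the Lyve1CreCsf1rfl/fl tumors. Dapl1 in these cells measured 0.198 and 0.362 against 1.23 and 1.21, on 3, 9, 27 and 25 UMIs. The cells numbered 21, 52, 49 and 53 in the same order. Il7r and Tcf7 overlapped between genotypes in them, and Klf2 did not. No test was made in these few cells, and the share of all genes without overlap was not counted.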
